A study of Mus musculus with 7 samples.

Results

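The 34 genes described here encode the enzymes, transporters and regulators that carry glucose to pyruvate and lactate. They were chosen by name, as the hexokinases, the other glycolytic enzymes, the glucose and lactate transporters, lactate dehydrogenases, the mitochondrial entry of pyruvate and the regulators Pfkfb2, Pfkfb3 and Hif1a. All 34 were found among the 27998 genes of the count table. The study asked whether cortical oligodendrocyte lineage cells (OLCs) of dorsal and ventral origin are interchangeable. Sorted single cells of P90 mice on a C57BL/6-B6CBA background, labelled as motor and cingulate cortex, were sequenced with 10x Genomics 3′ chemistry. The study's methods call the tissue neocortex and also describe taking corpus callosum. Control dOLCs were the tdTom+ cells of Emx1-Cre:Sox10-GFP-TdTom mice. Control vOLCs were the GFP+ cells of the same mice. Ectopic vOLCs were the GFP+ cells of mice that carried Emx1-Cre and Sox10-GFP-tdTom together with Sox10-GFP-DTA, in which OLCs of the Emx1 lineage express diphtheria toxin fragment A. In all 3 groups Emx1-Cre acts in progenitors of the dorsal forebrain and Sox10 sequences drive the reporter in OLCs, so origin is read from a reporter colour. GFP+ cells of control mice are those in which Cre did not act on the reporter. The DTA transgene also carries GFP until Cre acts on it, so in ablated mice GFP can come from either transgene. Ablation of dorsal cells was incomplete by the study's account.

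Glycolysis splits glucose into pyruvate in the cytosol. Pyruvate is either reduced to lactate by lactate dehydrogenase or carried into mitochondria and oxidised by the pyruvate dehydrogenase complex, which the Pdk kinases inhibit. Mature oligodendrocytes are known to export lactate to axons through the monocarboxylate transporter MCT1, encoded by Slc16a1, and to take up glucose through GLUT1, encoded by Slc2a1. Hif1a encodes the oxygen-regulated subunit of a transcription factor that induces many of these genes.

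Each condition was 1 library, made from cells of 4 control mice (both control libraries) or 2 ablated mice that cannot be told apart in the files. No test between conditions could therefore be made, and every interval below is a 95% interval that covers counting error only. After the authors' filter, 5804 control dOLCs, 925 control vOLCs and 2562 ectopic vOLCs remained, with 23078181, 4846391 and 14293675 unique molecular identifiers (UMIs). The median cell held 3489.5, 5022 and 5318.5 UMIs. Between 6 and 24 cell barcodes were shared by a pair of libraries. Levels are a gene's UMIs scaled to 1000000 UMIs summed over the cells of a population (CPM), given in the order control dOLCs, control vOLCs and ectopic vOLCs. The authors' cluster names were used: OPC for oligodendrocyte precursor cells, and MOL1, MOL2 and MOL5/6 for mature oligodendrocytes, MOL2 being the sum of MOL2a and MOL2b and MOL5/6 that of MOL5/6a to MOL5/6d. The OPC markers Pdgfra, Cspg4 and Ptprz1 summed to 5095, 6721 and 4936 CPM in OPCs and 59.0, 37.0 and 25.5 CPM in MOL5/6. The mature markers Mog, Mag and Mal summed to 11489.8, 11669 and 12339.8 CPM in MOL5/6. In OPCs these 3 mature markers summed to 2042, 798 and 781 CPM, most in control dOLCs. The members together took 0.432%, 0.444% and 0.465% of all UMIs.

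HIF binds sites with the core letters ACGTG, which E-box sites can also hold. These letters, on either strand (CACGT), were found in 22 of the 48 RefSeq windows of 31 members, from 250 bases before to 50 after a start (GRCm38.p6), which is 45.8%. The share over all 32851 windows of that length was 19.6%. A palindromic CACGTG counts on both strands and appears as 1 stretch of 6 capitals. Slc2a3, Slc16a7 and Bsg had no window. The windows of 4 members described below are shown as examples that hold the letters, with every match in capitals. Ldha was higher in OPCs, Slc16a1 and Slc2a1 were higher in mature cells, and Pgk1 differed between libraries.
Ldha, chr7:46845554-46845853, + strand: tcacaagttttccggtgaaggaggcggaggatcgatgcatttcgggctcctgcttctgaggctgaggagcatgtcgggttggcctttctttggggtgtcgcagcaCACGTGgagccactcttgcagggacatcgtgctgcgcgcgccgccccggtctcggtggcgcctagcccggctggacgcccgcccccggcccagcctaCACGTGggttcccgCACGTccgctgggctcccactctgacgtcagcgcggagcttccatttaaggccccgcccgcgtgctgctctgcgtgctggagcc
Slc16a1, chr3:104638414-104638713, + strand: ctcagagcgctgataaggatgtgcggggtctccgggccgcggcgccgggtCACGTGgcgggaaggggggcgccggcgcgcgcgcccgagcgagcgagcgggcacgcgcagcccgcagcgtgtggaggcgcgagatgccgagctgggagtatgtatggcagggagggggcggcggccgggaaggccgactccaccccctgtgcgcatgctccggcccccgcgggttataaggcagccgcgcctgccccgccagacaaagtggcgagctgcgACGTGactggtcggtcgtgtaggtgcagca
Slc2a1, chr4:119108495-119108794, + strand: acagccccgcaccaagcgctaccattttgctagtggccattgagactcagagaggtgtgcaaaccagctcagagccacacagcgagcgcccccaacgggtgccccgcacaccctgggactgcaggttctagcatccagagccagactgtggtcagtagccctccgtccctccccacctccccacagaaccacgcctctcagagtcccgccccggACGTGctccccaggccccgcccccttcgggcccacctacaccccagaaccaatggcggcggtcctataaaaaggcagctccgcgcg
Pgk1, chrX:106186850-106187149, + strand: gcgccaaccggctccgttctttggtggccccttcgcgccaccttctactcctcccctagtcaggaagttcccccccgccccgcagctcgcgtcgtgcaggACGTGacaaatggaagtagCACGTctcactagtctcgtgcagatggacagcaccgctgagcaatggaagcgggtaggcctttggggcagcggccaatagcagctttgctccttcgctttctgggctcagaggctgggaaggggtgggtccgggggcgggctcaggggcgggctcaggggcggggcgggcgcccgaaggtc
The letters occurred at 3 places in the Ldha window shown, 2 in those of Slc16a1 and Pgk1 and 1 in that of Slc2a1. The Ldhb window, a second Ldha window, the 3 windows of Eno1 and the 2 of Mpc1 held none. The letters were thus found at genes that were higher in OPCs and at genes that were higher in mature cells, and a match is a description, not a binding site.

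OPCs had higher levels of Eno1, Ldha and Bsg than MOL5/6 in each library, and lower levels of Slc2a1, Slc16a1 and Mpc1. To be compared, a gene needed 50 UMIs or more over both sums and had to be detected in 10% or more of the cells on one side. A gene was counted as higher or lower when the CPM differed by 1.5-fold or more, a log2 ratio of 0.58. Because the clusters were made from these same cells, this comparison is a description. In control dOLCs 11 of 23 members were higher in OPCs and 5 were lower, beside 40.4% and 16.1% of 5825 genes. In control vOLCs 9 of 22 were higher and 7 lower, beside 39.7% and 24.2% of 6009 genes. In ectopic vOLCs 12 of 26 were higher and 7 lower, beside 49.7% and 14.8% of 6608 genes. No test stands behind these shares. The median log2 ratio of the members was 0.47, 0.11 and 0.53, beside 0.36, 0.27 and 0.58 for all genes. Scaling by edgeR's TMM factors moved the median of all genes by -0.66, -0.85 and -0.92, to -0.30, -0.58 and -0.34. It turned the members' median below 0 in each library, to -0.19, -0.74 and -0.39. Under it 7 members were higher and 8 lower in control dOLCs, beside 21.8% and 38.1% of genes. The corresponding members were 4 and 11 in control vOLCs, beside 17% and 49.8% of genes, and 7 and 12 in ectopic vOLCs, beside 22.7% and 40.5%. Of 21 members past the filter in all 3 libraries, 9 were higher by 1.5-fold or more in OPCs in every library and 5 were lower, beside 30.8% and 14.5% of the 5293 genes that passed it in all 3. The 9 were Hk1, Pfkl, Aldoc, Eno1, Pkm, Ldha, Ldhb, Bsg and Hif1a, and the 5 were Aldoa, Slc2a1, Slc16a1, Pdk2 and Mpc1. Hk1 in every library, Pfkl in control dOLCs and Pdk2 in both controls, and among the other members counted Pfkm and Pfkp in control dOLCs and ectopic vOLCs and Dlat, Pgk1 and Eno2 in ectopic vOLCs, reached the 10% detection minimum only in the population where they were higher, so the filter had a part in their count. With TMM factors or median of ratios size factors 8 of the 9 were still above 0 in every library, Pfkl being the exception, and all 5 were below 0. In control vOLCs, though, Pkm and Ldhb were only at 0.0048 and 0.0079 with TMM factors, so almost no difference was left. Only Hk1, Eno1 and Ldha were still past 1.5-fold in OPCs in every library under TMM factors.

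**Figure D1:**
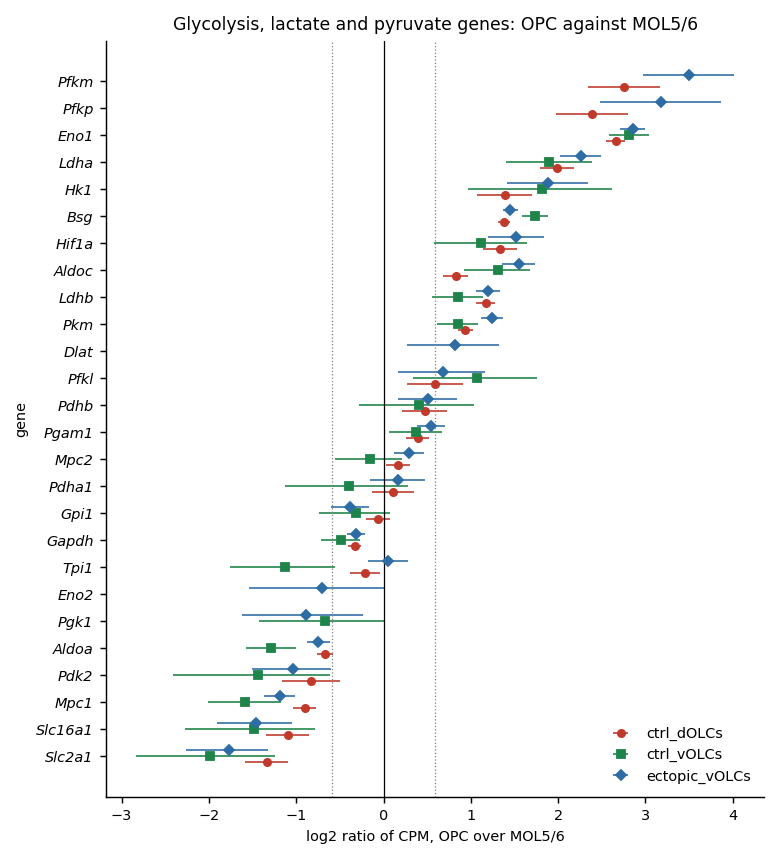
Log2 ratio of CPM in OPCs over MOL5/6 for each member past the filter, by library. Points are ratios, bars are 95% intervals for counting error, the solid line marks 0 and the dotted lines mark 1.5-fold. Eno1 and Ldha lie far to the right and Slc2a1 and Slc16a1 to the left in each library.

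Transcript levels of genes for glucose entry differed between the stages. Slc2a1, the main glucose transporter of the blood-brain barrier and glia, was measured at 57.9, 38.0 and 33.3 CPM in OPCs and 146, 150.3 and 114 CPM in MOL5/6. The level was lower in OPCs in every library, with log2 ratios of -1.33 (95% interval -1.58 to -1.10), -1.98 (95% interval -2.83 to -1.25) and -1.77 (95% interval -2.27 to -1.32). Slc2a3, which encodes the high-affinity transporter GLUT3, went the other way, at 25.5, 32.9 and 25.0 CPM in OPCs and 3.37, 4.45 and 1.61 CPM in MOL5/6, but it did not pass the filter in any comparison. It took 30.6, 46.4 and 42.9% of the UMIs of these 2 transporters in OPCs and 2.26, 2.88 and 1.39% in MOL5/6. Shares of UMIs within a family are tag counts from the 3′ end and were not corrected for transcript length. Hk1, the hexokinase that traps glucose in most brain cells, was at 46.5, 50.7 and 47.4 CPM in OPCs and 17.7, 14.4 and 12.9 CPM in MOL5/6. Hk2, the inducible hexokinase, had between 0 and 22 UMIs in these sums.

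Among the enzymes that follow, Eno1 was higher in OPCs and was detected in over 10% of the cells of both populations in each library. Pfkm and Pfkp reached that share only in OPCs, did not pass the filter in control vOLCs, and are given as levels. Eno1, the widely expressed enolase, was at 553, 768 and 609.7 CPM in OPCs and 87.3, 109.6 and 84.5 CPM in MOL5/6. Its log2 ratios of 2.66 (95% interval 2.55 to 2.77), 2.81 (95% interval 2.58 to 3.04) and 2.85 (95% interval 2.71 to 2.99) overlapped between libraries. Its 3′ end matched 4 other annotated genes, of which Eno1b is in the table, so reads could be split between them. Eno2, called neuron-specific enolase, took 2.68, 3.19 and 2.14% of the UMIs of Eno1 and Eno2 in OPCs and 20.0, 16.4 and 20.5% in MOL5/6. Phosphofructokinase catalyses the committed step of glycolysis. Pfkm, its muscle-type subunit, was at 42.3, 50.7 and 60.7 CPM in OPCs and 6.27, 6.85 and 5.39 CPM in MOL5/6. Pfkp, the platelet-type subunit, was at 36.9, 32.9 and 31.6 CPM in OPCs and 7.08, 6.16 and 3.50 CPM in MOL5/6. Pfkl, the liver-type subunit, therefore took 33.8, 41.1 and 27.0% of phosphofructokinase UMIs in OPCs and 66.7, 68.1 and 70.5% in MOL5/6. Pkm, the pyruvate kinase of brain, was at 519.9, 461 and 555 CPM in OPCs and 272, 255 and 234 CPM in MOL5/6. Aldoa and Aldoc encode aldolases and moved apart. Aldoa was at 368, 274 and 415 CPM in OPCs and 586, 668 and 697 CPM in MOL5/6, while Aldoc was at 207, 205 and 250.4 CPM and 117, 82.9 and 85.5 CPM. Gapdh, Gpi1, Tpi1 and Pgam1, which carry out steps between these, differed by less than 1.5-fold in CPM between the stages in control dOLCs and ectopic vOLCs. Under TMM factors or size factors Gpi1, Tpi1 and Gapdh were instead lower in OPCs by 1.5-fold or more in every library. Gpi1, glucose-6-phosphate isomerase, was at 186, 147 and 159 CPM in OPCs and 195, 183 and 207 CPM in MOL5/6. The 3′ end of Gpi1 matched 1 other annotated gene, Mrpl27, which is in the table. Pgam1, phosphoglycerate mutase, was at 237, 274 and 304 CPM and 180.4, 212 and 208 CPM. Tpi1, triosephosphate isomerase, was lower in OPCs of control vOLCs at 65.9 CPM from 26 UMIs, with a log2 ratio of -1.12 (95% interval -1.75 to -0.55). Gapdh, glyceraldehyde-3-phosphate dehydrogenase, was at 591, 448 and 644 CPM in OPCs and 743, 629 and 801 CPM in MOL5/6. Its 3′ end matched 88 other annotated genes, 86 of them pseudogenes, so its level is uncertain.

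Lactate genes showed a stage difference in both directions. Ldha, the subunit of lactate dehydrogenase that favours lactate formation, was at 146, 137 and 186 CPM in OPCs, 36.8, 36.6 and 39.0 CPM in MOL5/6 and 17.1, 18.8 and 20.0 CPM in MOL2. Ldhb, the subunit that favours pyruvate formation, was at 393, 309 and 448 CPM in OPCs, 175, 171 and 195 CPM in MOL5/6 and 341, 402 and 363 CPM in MOL2. Ldha thus took 27.1, 30.7 and 29.4% of lactate dehydrogenase UMIs in OPCs, 17.4, 17.7 and 16.7% in MOL5/6 and 4.77, 4.46 and 5.21% in MOL2. The 3 intervals within each population overlapped, and those of different populations did not for OPCs, MOL5/6 and MOL2. MOL2 differed from MOL5/6 in Ldhb, with log2 ratios of 0.96 (95% interval 0.87 to 1.06), 1.23 (95% interval 1.05 to 1.42) and 0.90 (95% interval 0.76 to 1.03). Slc16a1 was at 55.6, 43.1 and 39.9 CPM in OPCs and 119, 120.2 and 110.2 CPM in MOL5/6 and was lower in OPCs in every library. Bsg, the chaperone that brings the monocarboxylate transporters to the cell surface, was at 972, 1360.4 and 1179.5 CPM in OPCs and 373, 408 and 431 CPM in MOL5/6. The transporter and its chaperone thus differed in opposite directions. Slc16a3 and Slc16a7, which encode MCT4 and MCT2, were at most 7.60 CPM in OPCs and 6.94 CPM in MOL5/6, and Slc16a1 held at least 81.0% of the UMIs of the 3 transporters in both.

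**Figure D2:**
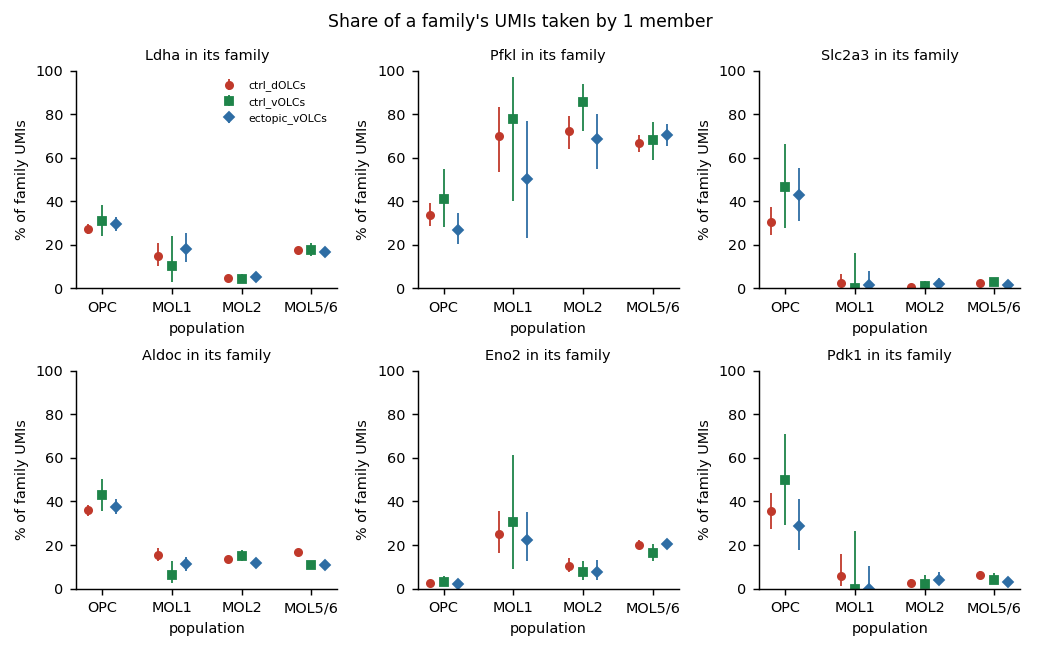
Share of a family's UMIs taken by 1 member in OPC, MOL1, MOL2 and MOL5/6 of each library, in percent, with exact 95% binomial intervals. The families are Ldha with Ldhb, Pfkl with Pfkm and Pfkp, Slc2a3 with Slc2a1, Aldoc with Aldoa, Eno2 with Eno1, and Pdk1 with Pdk2 and Pdk4. The Ldha share is highest in OPCs and lowest in MOL2 in each library.

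Among the genes of mitochondrial pyruvate entry, Mpc1 and Pdk2 were lower in OPCs in every library. Mpc1, a subunit of the mitochondrial pyruvate carrier, was at 199, 129 and 225 CPM in OPCs and 371, 387 and 513 CPM in MOL5/6. Mpc2, its partner, was at 193, 165 and 261 CPM and 173, 184 and 213 CPM, so the subunits did not move alike. The 3′ end of Mpc1 matched 2 other annotated genes, both pseudogenes, and those of Ldhb and Pdhb matched 1 pseudogene each. Pdha1 and Pdhb, subunits of the pyruvate dehydrogenase component, differed by less than 1.5-fold in CPM in every library, with log2 ratios between -0.39 and 0.51. Under TMM factors or size factors Pdha1, Pdhb and Mpc2 were all below 0 in every library, and the Pdha1 ratio with TMM factors was -0.55, -1.24 and -0.75. Pdk2, a kinase that inhibits the complex, was at 32.8, 30.4 and 37.4 CPM in OPCs, 58.0, 82.5 and 77.0 CPM in MOL5/6 and 103, 108 and 120.5 CPM in MOL2. Pdk1, a kinase known as a HIF target, took 35.5, 50 and 28.6% of the UMIs of Pdk1, Pdk2 and Pdk4 in OPCs and 6.42, 3.92 and 3.19% in MOL5/6. Pdk4 had at most 14 UMIs in any of these sums. Dlat, the acetyltransferase of the complex, was at 28.6, 32.9 and 31.6 CPM in OPCs and 17.1, 15.4 and 18.0 CPM in MOL5/6. Hif1a was at 117, 101 and 92.3 CPM in OPCs and 46.5, 46.6 and 32.2 CPM in MOL5/6. Pfkfb3, which makes the main activator of phosphofructokinase, was at 6.86, 2.53 and 2.50 CPM in OPCs and 20.2, 22.6 and 10.7 CPM in MOL5/6, from at most 18 UMIs in an OPC sum. Pfkfb2 was at 10.3, 10.1 and 2.50 CPM in OPCs and 4.45, 4.79 and 1.99 CPM in MOL5/6. Of the 34 members 26 passed the filter in at least 1 comparison, and the 8 that passed in none were Hk2, Slc2a3, Slc16a3, Slc16a7, Pdk1, Pdk4, Pfkfb2 and Pfkfb3.

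One annotated cluster stood apart in Aldoc, the aldolase that marks astrocytes. In the cluster named MFOLb, a stage of myelin-forming cells, Aldoc was at 1083 CPM in 106 control dOLCs and 851 CPM in 43 ectopic vOLCs, and 68 UMIs were counted in 8 control vOLCs. In the cluster named COP/NFOL/MFOLa it was at 36.1 CPM in control dOLCs and 40.2 CPM in ectopic vOLCs. The first 10 genes that led MFOLb over the other clusters included Gja1, Slco1c1 and Grin2c in each library. These genes are known from astrocytes and go against its name. The mature oligodendrocyte markers Mog, Mag and Mal go with it, and summed to 9550, 7875 and 9800 CPM in MFOLb. The 8 astrocyte markers Aqp4, Gja1, Slc1a2, Slc1a3, Gfap, Aldh1l1, Slc4a4 and Gjb6 summed to 2668, 3231 and 2171 CPM there, against 56.2, 80.3 and 73.6 CPM in COP/NFOL/MFOLa and 159, 163 and 148 CPM in MOL5/6. Their part in the Aldoc level was not tested. MFOLb entered no comparison between populations or conditions.

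In MOL5/6 of ectopic vOLCs no member past the filter reached a 1.5-fold difference from control dOLCs in CPM, while 2 did with TMM factors and 3 with size factors. Of 22 members past the filter 0 were higher and 0 lower by that much, beside 1.13% and 11.5% of 5218 genes. With no replicate there is no test behind this count. Against control vOLCs 0 were higher and 1, Pgk1, was lower, beside 1.46% and 12.4% of 5496 genes. Their median log2 ratio was 0.10 to control dOLCs and 0.03 to control vOLCs, beside -0.03 and -0.02 for all genes. As a mean within the clusters MOL5/6a to MOL5/6d the members' median was -0.046 to control dOLCs and 0.0040 to control vOLCs, beside -0.11 and -0.086 for all genes, so the first turned below 0. TMM factors moved the median of all genes by 0.17 and 0.15. The genes past 1.5-fold then split into 3.72% higher and 6.59% lower against control dOLCs, and 4.33% and 7.55% against control vOLCs. Size factors gave 4.33% and 6.09%, and 4.77% and 7.3%. With TMM factors Mpc1 (log2 ratio 0.64) and Pgk1 (0.67) passed 1.5-fold against control dOLCs, and with size factors Pdk2 (0.59) did too. Longer transcripts had lower ratios in this comparison, with a Spearman rho of -0.53 across 5082 genes against control dOLCs and -0.50 across 5352 against control vOLCs. Genes are not independent replicates. Less the median of genes of like length, a comparison chosen after seeing the data, the members' median was 0.087 to control dOLCs and -0.039 to control vOLCs, where 8 of 22 members were above 0 in place of 12.

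Members with differences below 1.5-fold came from several steps of the pathway. Slc2a1 was at 146, 150.3 and 114 CPM, lowest in ectopic vOLCs, with log2 ratios of -0.36 (95% interval -0.46 to -0.26) and -0.40 (95% interval -0.56 to -0.24) to the 2 controls. Hif1a was at 46.5, 46.6 and 32.2 CPM, again lowest in ectopic vOLCs, with -0.53 (95% interval -0.72 to -0.34) and -0.53 (95% interval -0.83 to -0.24). Pfkl was at 26.8, 27.7 and 21.3 CPM, with -0.33 (95% interval -0.57 to -0.09) and -0.38 (95% interval -0.75 to 0.0023). Mpc1 was at 371, 387 and 513 CPM, highest in ectopic vOLCs, with 0.47 (95% interval 0.41 to 0.52) and 0.41 (95% interval 0.32 to 0.50). Mpc2 was at 173, 184 and 213 CPM, with 0.30 (95% interval 0.22 to 0.38) and 0.21 (95% interval 0.08 to 0.35). In the pooled sums Pdk2 was at 58.0, 82.5 and 77.0 CPM, lowest in control dOLCs, and Aldoc at 117, 82.9 and 85.5 CPM, highest there. Among members below the filter, Pfkfb3 was at 20.2, 22.6 and 10.7 CPM from 300, 66 and 113 UMIs, with log2 ratios of -0.92 (95% interval -1.24 to -0.60) and -1.08 (95% interval -1.53 to -0.62). Pfkfb2 was at 4.45, 4.79 and 1.99 CPM and Pfkp at 7.08, 6.16 and 3.50 CPM, also lowest in ectopic vOLCs. Ldha, Slc16a1, Tpi1 and Eno2 had log2 ratios between -0.13 and 0.09 to the controls.

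**Figure D3:**
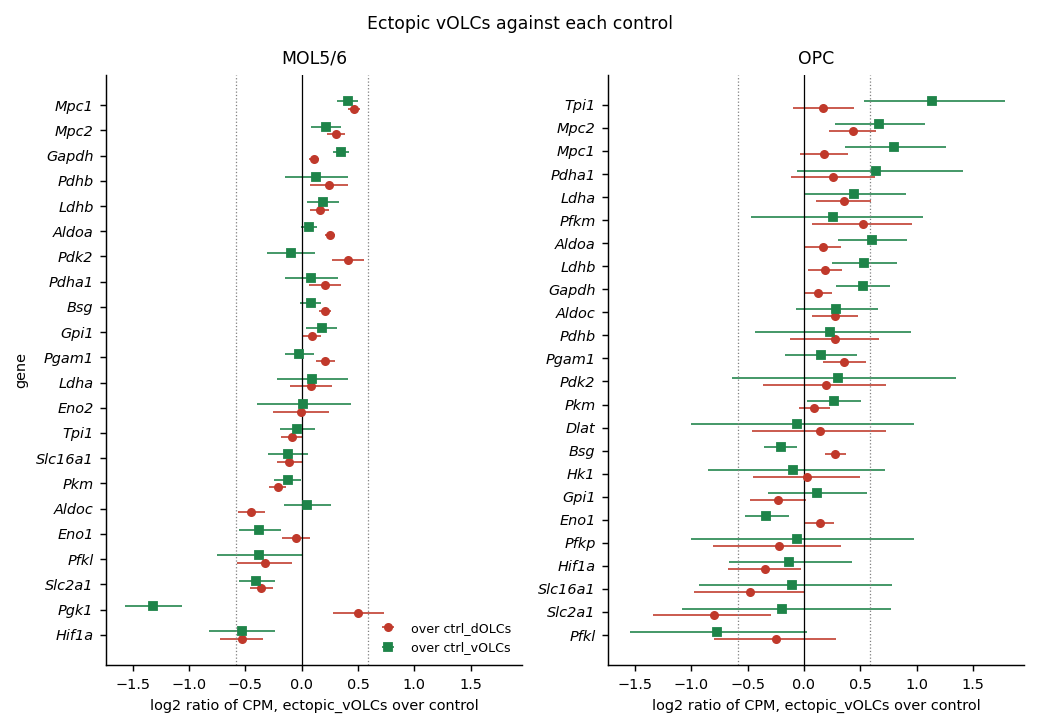
Log2 ratio of CPM in ectopic vOLCs over each control for the members past the filter, in MOL5/6 (left) and OPC (right). Points are ratios, bars are 95% intervals for counting error, the solid line marks 0 and dotted lines mark 1.5-fold. In MOL5/6 only Pgk1 lies past a dotted line, against control vOLCs.

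The pooled MOL5/6 values mix 4 clusters that the libraries fill differently, so each member was also read within the clusters. Ectopic vOLCs had 900, 42, 63 and 837 cells in MOL5/6a to MOL5/6d, control dOLCs 333, 1947, 928 and 569, and control vOLCs 237, 236, 53 and 35. Mpc1 in control dOLCs was at 382, 289.7, 357 and 523 CPM in MOL5/6a to MOL5/6d, and in ectopic vOLCs at 380.5, 259, 399 and 615 CPM. The clusters thus differed in Mpc1 more than the libraries did. Within them ectopic vOLCs had a log2 ratio to control dOLCs of -0.0049 (95% interval -0.15 to 0.14) in MOL5/6a and 0.24 (95% interval 0.15 to 0.32) in MOL5/6d. The unweighted mean over the 4 clusters was 0.06 to control dOLCs and -0.03 to control vOLCs, against 0.47 and 0.41 for the pooled sums. For Mpc2 the means within clusters were 0.09 and -0.03, against 0.30 and 0.21 for the pooled sums. For Pdk2 they were 0.14 to control dOLCs, -0.48 to control vOLCs and 0.62 between the controls, so in these means ectopic vOLCs lay nearer control dOLCs. Such means have no interval and weigh each cluster alike, also MOL5/6b with 42 ectopic vOLCs and MOL5/6d with 35 control vOLCs. Slc2a1 was at 204, 167, 120.4 and 119 CPM in control dOLCs, 165, 175, 94.2 and 63.6 CPM in control vOLCs and 159.8, 158, 128 and 80.6 CPM in ectopic vOLCs. Its unweighted mean within clusters was -0.22 to control dOLCs and 0.15 to control vOLCs, so in this mean its direction against control vOLCs turned. Ectopic vOLCs were below control vOLCs in MOL5/6a and MOL5/6b. They were above them in MOL5/6c and MOL5/6d, where control vOLCs had only 53 and 35 cells. In MOL5/6d its log2 ratio to control dOLCs was -0.56 (95% interval -0.75 to -0.37) in ectopic vOLCs and -0.90 (95% interval -1.69 to -0.20) in control vOLCs, so both groups of ventral cells were low there. Hif1a kept its direction, with means of -0.27 and -0.43, and had a ratio below 0 to either control in each of the 4 clusters. Only the interval in MOL5/6d against control dOLCs left out 0. Aldoc, at -0.39 to control dOLCs, was below 0 in MOL5/6b, MOL5/6c and MOL5/6d and was 0.10 (95% interval -0.17 to 0.37) in MOL5/6a. Pkm had ratios to control dOLCs between -0.37 and -0.14 in the 4 clusters, and ratios to control vOLCs from -0.23 to 0.11. In MOL2 Mpc1 was at 401, 382 and 541 CPM and in MOL1 at 292, 309 and 471 CPM, highest in ectopic vOLCs in each. The log2 ratios to control dOLCs were 0.43 (95% interval 0.31 to 0.55) in MOL2 and 0.69 (95% interval 0.43 to 0.95) in MOL1. Those to control vOLCs were 0.50 (95% interval 0.34 to 0.67) and 0.61 (95% interval 0.16 to 1.08). MOL2 again mixes clusters, with 498, 179 and 115 cells in MOL2a and 235, 6 and 106 in MOL2b. Mpc1 was at 309, 375 and 389 CPM in MOL2a. In MOL2b it was at 513 CPM in control dOLCs and 662 CPM in ectopic vOLCs, and 28 UMIs were counted in the 6 control vOLCs.

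**Figure D4:**
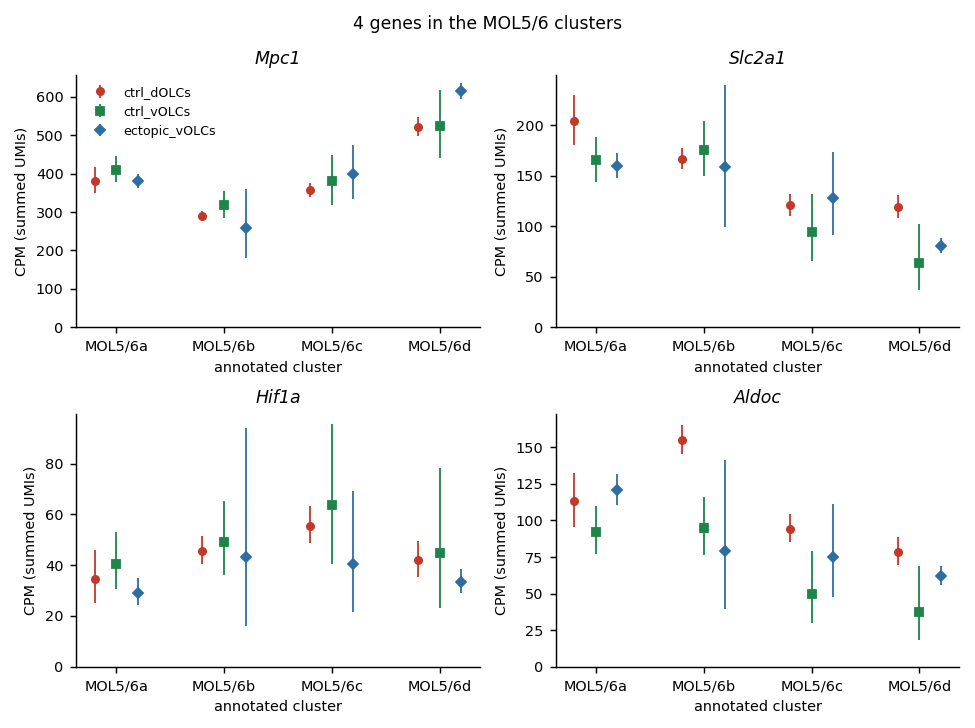
CPM of Mpc1, Slc2a1, Hif1a and Aldoc in the clusters MOL5/6a to MOL5/6d of each library. Bars are 95% Poisson intervals. Mpc1 is highest in MOL5/6d of each library, and Hif1a in ectopic vOLCs is the lowest point in each cluster.

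OPCs of ectopic vOLCs were compared first with those of control dOLCs. The sums held 853, 121 and 330 cells. Of 24 members past the filter, 0 were higher by 1.5-fold or more and 1 was lower, beside 5.34% and 5.79% of 6110 genes, so the count does not set the members apart from other genes. That member was Slc2a1, at 57.9, 38.0 and 33.3 CPM from 152, 15 and 40 UMIs, with a log2 ratio of -0.80 (95% interval -1.34 to -0.29). Slc16a1 was at 55.6, 43.1 and 39.9 CPM, with -0.48 (95% interval -0.98 to 0.0016). These 2 genes are higher in mature cells, and the summed mature markers were also higher in control dOLC OPCs, at 2042, 798 and 781 CPM. Their part in the Slc2a1 and Slc16a1 ratios was not tested. Without the 6% of cells with the highest doublet scores in each library the Slc2a1 ratio was -0.58, just short of 1.5-fold. The median log2 ratio was 0.17, beside 0.08 for all genes.

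Against control vOLCs, whose OPCs numbered 121, 5 members were higher in ectopic vOLCs by 1.5-fold or more and 1 was lower, beside 18% and 9.77% of 5721 genes. The 5 were Tpi1, Mpc1, Mpc2, Pdha1 and Aldoa, and the lower one was Pfkl. Under the alternative settings the lowest log2 ratios of the 5 were 0.62, 0.26, 0.56, 0.49 and 0.38 in that order. Of the 5 only Tpi1 thus stayed past 1.5-fold throughout. Tpi1 was at 128, 65.9 and 145 CPM, with 1.14 (95% interval 0.54 to 1.79). Mpc1 was at 199, 129 and 225 CPM, with 0.80 (95% interval 0.37 to 1.26). Aldoa was at 368, 274 and 415 CPM, with 0.60 (95% interval 0.30 to 0.92). In these 3 genes control vOLCs were the low library, and ectopic vOLCs lay nearer control dOLCs. Mpc2 was at 193, 165 and 261 CPM, with 0.67 (95% interval 0.28 to 1.07), and there ectopic vOLCs were the high library and the controls lay nearer each other. Pdha1 was at 65.9, 50.7 and 79.0 CPM and Pfkl at 40.4, 58.3 and 34.1 CPM. The intervals of Pdha1 and Pfkl included 0. Between the controls, 1 member was higher in vOLC OPCs and 3 were lower, beside 10.8% and 12.1% of 5863 genes. Pgk1 was the higher one, and Tpi1, Mpc1 and Slc2a1 the lower ones, the interval of Slc2a1 including 0. The 3 contrasts share libraries and are not independent.

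Pgk1 was highest in the control vOLC library in MOL5/6, MOL2, MOL1 and OPCs. It encodes phosphoglycerate kinase, which makes the first ATP of glycolysis, and lies at chrX:106187100-106203699 on the + strand (GRCm38). Its level was 21.7, 76.7 and 30.7 CPM in MOL5/6, 21.7, 75.8 and 23.2 CPM in MOL2, 22.0, 113 and 30.9 CPM in MOL1 and 20.6, 48.1 and 16.6 CPM in OPCs. The Poisson intervals of control vOLCs did not overlap those of the other 2 libraries in MOL5/6, MOL2, MOL1 and OPCs. Between the controls in MOL5/6, 1 of 21 members was higher in vOLCs and 0 lower, beside 2.56% and 0.731% of 5195 genes. That 1 was Pgk1, with a log2 ratio of 1.82 (95% interval 1.57 to 2.07). It was detected in over 10% of cells in control vOLCs but not in control dOLCs, in MOL5/6 and in OPCs, so it passed the filter through the library where it was high. Thinned to 1000 UMIs a cell it did not pass, at a ratio of 1.99. Of the 13 members that did, 0 were then higher and 1, Aldoc, was lower (-0.69), beside 2.85% and 1.36% of 1474 genes. Ectopic vOLCs gave -1.32 (95% interval -1.57 to -1.07) to control vOLCs and 0.50 (95% interval 0.28 to 0.73) to control dOLCs. Between the controls the ratio ran from 0.55 in MOL5/6c, where the interval included 0 and ectopic vOLCs were not below control vOLCs, to 1.92 in MOL5/6b. In each MOL5/6 cell the counts were low, and a UMI of Pgk1 was found in 8.02, 32.3 and 15.2% of cells as sequenced, at median depths of 3491, 5069 and 5478.5 UMIs. With each cell thinned to 1000 UMIs it was found in 1.85, 7.31 and 3.15%, and no cell was shallower. Among the other glycolytic enzymes past the filter, Eno1 had the next highest ratio between the controls in MOL5/6, at 87.3, 109.6 and 84.5 CPM and 0.33 (95% interval 0.15 to 0.51).

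The rows of the table named as pseudogenes were, like Pgk1, highest in control vOLCs. The 64 rows whose symbols end in -ps and a number summed to 334, 884 and 387 CPM in MOL5/6 and 289, 666 and 434 CPM in OPCs. Of 11 such rows with at least 50 UMIs, 11 were higher in control vOLCs than in control dOLCs in MOL5/6, with a median log2 ratio of 1.40. Of 10 such rows 0 were higher in ectopic vOLCs than in control vOLCs, with a median of -1.28. In OPCs 7 of 8 were higher in control vOLCs than in control dOLCs, and 1 of 6 was higher in ectopic vOLCs than in control vOLCs. Pgk1 and these rows did not rank the other 2 libraries alike in OPCs. There 8 of 9 rows were above control dOLCs in ectopic vOLCs (median log2 ratio 0.64), while Pgk1 was at 20.6 CPM in control dOLCs and 16.6 CPM in ectopic vOLCs, with overlapping intervals. In MOL5/6, 11 of 13 rows were higher in ectopic vOLCs, with a median of 0.20. The row of the pseudogene Pgk1-rs7 had 11, 8 and 15 UMIs in MOL5/6. No other annotated gene matched the last 500 bases of the Pgk1 transcript at 95% identity or more over at least 98 bases, and 4 genes matched elsewhere in the transcript. The part of such copies, or of the library, in the Pgk1 level was not tested. Whether the 3 libraries were counted with the same annotation and software release is not given in the sources used here, and a difference there would bear on every ratio to control vOLCs. Both control libraries came from the same mice, and with 1 library a condition, library and cell origin cannot be told apart.

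**Figure D5:**
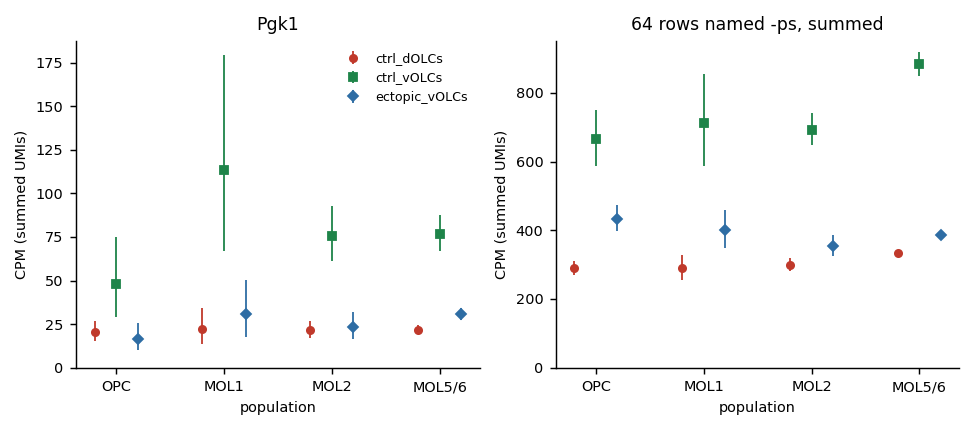
CPM of Pgk1 (left) and of the 64 rows named as pseudogenes together (right) in OPC, MOL1, MOL2 and MOL5/6 of each library, with 95% Poisson intervals. Control vOLCs are the highest point in each population in both panels.

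Genes around the pathway were read from lists of related genes. In MOL5/6 against control dOLCs, of the genes past the filter 0 were higher and 1 lower of 7 other glycolysis and pyruvate genes, 1 and 0 of 6 pentose phosphate genes, and 0 and 0 of 2 glycogen genes. For NADH shuttles these counts were 0 and 1 of 9, for the citrate cycle 1 and 1 of 14, and for HIF regulators and targets 0 and 0 of 9. Against control vOLCs they were 0 and 0 of 7, 0 and 0 of 6, 1 and 0 of 2, 0 and 0 of 9, 0 and 0 of 14, and 0 and 1 of 10. The shares of all genes given above for these comparisons, 1.13% higher and 11.5% lower and 1.46% and 12.4%, are the background. In MOL5/6, 0 of 47 list genes passed 1.5-fold against both controls in the same direction, beside 7.12% of 5211 genes. In OPCs 2 of 43 did, both from the HIF list, beside 4.55% of 5667 genes, so their number is near the background. Of its 10 genes past the filter, 1 was higher and 2 lower against control dOLCs, and 2 were higher and 2 lower against control vOLCs, where the shares of all genes were 5.34% and 5.79%, and 18% and 9.77%. Vegfa, the angiogenic factor induced by HIF, was at 190.4, 555 and 123 CPM in OPCs, with a log2 ratio of ectopic vOLCs of -0.63 (95% interval -0.90 to -0.36) to control dOLCs and -2.17 (95% interval -2.48 to -1.86) to control vOLCs. Control vOLCs were the high library, and ectopic vOLCs lay nearer control dOLCs. Vhl, part of the ligase that marks HIF subunits for degradation, was at 37.3, 35.5 and 59.1 CPM, from 98, 14 and 71 UMIs, with 0.66 (95% interval 0.20 to 1.12) and 0.74 (95% interval -0.10 to 1.68). In OPCs of the 5 other lists, 1 and 0 of 5 other glycolysis and pyruvate genes passed 1.5-fold against control dOLCs, and 0 of 4 pentose phosphate, 4 glycogen, 6 NADH shuttle and 15 citrate cycle genes did in either direction. Against control vOLCs they were 0 and 0 of 5, 0 and 0 of 4, 1 and 0 of 4, 1 and 0 of 6, and 0 and 0 of 14.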

How the data were processed

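The deposited table held raw counts of unique molecular identifiers (UMIs) for 27998 genes in 10081 barcodes, made by the authors from 10x 3′ v2 libraries with mm10. The submitters' processing notes name Cell Ranger 2.1.1 and Seurat 3 and 4.0. The study's reporting summary also names that Cell Ranger release for single-cell data, while its methods text names a later one for this table. The authors kept cells with more than 200 and fewer than 3000 genes and under 15% mitochondrial counts, and deposited the percent of mitochondrial counts and cluster names for 9291 cells. Those names were used, and 7 other annotation columns were not. No doublet removal is given in the sources used here. Scanpy's Scrublet called 4, 15 and 31 cells in the 3 libraries, which stayed in, and leaving out the 6% with the highest scores was an alternative.

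UMIs were summed by library and cluster and scaled to 1000000 (CPM), with no pseudocount. A 3′ count is not corrected for length. Ratios have conditional exact binomial intervals, levels exact Poisson intervals and shares Clopper-Pearson intervals, all at 95%. They cover counting error only. A gene entered a comparison if both sums together held 50 UMIs or more and 10% or more of the cells on one side had a UMI. Each condition was 1 library of pooled mice, so no p-value was computed. Alternatives were edgeR 4.0.16 TMM factors, DESeq2 1.42.0 size factors, no filter, a mean over cells, thinning to 1000 UMIs, at most 10% mitochondrial counts, fewer doublets, means within the MOL5/6 clusters, and a correction for transcript length that was chosen after seeing the data. Scripts ran on python 3.11.15, scanpy 1.11.5 and R 4.3.3 and were tested on simulated data. Promoter windows are from RefSeq and transcripts, compared with blastn 2.17.0, from GENCODE.

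The 34 members and the related gene lists were chosen with earlier results of these data known. All members are named, and list genes only where they passed 1.5-fold against both controls in the same direction. The 4 P0 samples carry labels that give no single condition and were not analysed here. A further marker of mature cells is not reported here.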

Additional observations from a re-analysis of the deposited data

Results flagged for a closer look

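Aldoc, the aldolase C gene, differed in sign between populations against control dOLCs. Its log2 ratio in ectopic vOLCs was -0.45 (95% interval -0.56 to -0.33) in MOL5/6 and 0.28 (95% interval 0.07 to 0.48) in OPCs. Pkm, pyruvate kinase, did so against control vOLCs, with -0.13 (95% interval -0.25 to -0.01) in MOL5/6 and 0.27 (95% interval 0.03 to 0.51) in OPCs. The sign of the Pkm ratio in MOL5/6 turned with the scaling, at 0.020 with TMM factors and 0.033 with size factors, and the mean within clusters was -0.0045. Aldoa, aldolase A, did so between the controls, with a ratio of control vOLCs to control dOLCs of 0.19 (95% interval 0.12 to 0.26) in MOL5/6 and -0.43 (95% interval -0.73 to -0.14) in OPCs. In all 3 cases the intervals in CPM lay on opposite sides of 0 and cover counting error only. With 1 library a condition the difference between populations was not tested.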

How the results depend on the processing

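Of 72 medians over the members, 65 stayed within the spread of the main value under the alternatives and 7 moved. That spread is an interval of the median over members and can be wide. For OPCs against MOL5/6 in control vOLCs it ran from -1.12 to 1.12. Of the 72 medians 14 changed sign. Of 72 counts of members past 1.5-fold, 55 stayed within 1.5 times and 17 did not. Of 1650 single ratios 1347 stayed within their intervals, 298 moved and 5 reversed. A reversal was counted only for ratios past 1.5-fold as reported, and 129 ratios of any size changed sign. For MOL5/6 of ectopic vOLCs against control dOLCs, TMM factors and size factors gave medians of 0.27 and 0.29 and counts of 2 and 3, all higher. No filter gave a count of 7, all lower. Against control vOLCs the 2 kinds of factors gave medians of 0.18 and 0.19, no filter gave 7 members, all lower, and thinning 0 (beside 2.77% and 10.5% of genes). For control vOLCs against control dOLCs in MOL5/6, no filter gave 2 members, and the mean within clusters gave a median of -0.047 and 3 members (beside 2.96% and 1.42% of genes). In OPCs, no filter gave 3, 10 and 8 members for ectopic vOLCs against control dOLCs, ectopic vOLCs against control vOLCs, and between the controls. Against control dOLCs, thinning and fewer doublets each gave 0 members (beside 4.82% and 6.35%, and 4.65% and 4.58% of genes), and comparison with genes of like length, chosen after seeing the data, gave a median of 0.0094. That length comparison gave 3 members against control vOLCs, beside 12.6% and 10.1% of genes (higher and lower). Beside these counts without the filter, the genes past 1.5-fold (higher and lower) in MOL5/6 were 5.75% and 24.4% for ectopic vOLCs against control dOLCs, 6.09% and 27.3% against control vOLCs, and 16.3% and 9.21% between the controls. In OPCs they were 13.8% and 12.4%, 17.9% and 24.5%, and 23.7% and 14.6%. For OPCs against MOL5/6, thinning gave 10, 10 and 11 members, beside 35.8% and 26.3%, 29.1% and 40%, and 40.9% and 24.5% of genes. In control vOLCs its split was 4 higher and 6 lower in place of 9 and 7. No filter gave 25 in control vOLCs (beside 55.4% and 15.7% of genes). TMM factors gave medians of -0.19, -0.74 and -0.39, and size factors -0.11, -0.58 and -0.31, all turned below 0. Reversed ratios were those of Pfkl in control dOLCs (TMM factors, -0.069) and of Pfkl (-0.24 and -0.15) and Dlat (-0.11 and -0.021) in ectopic vOLCs under TMM factors and size factors. Thinned cells leave fewer genes past the filter. The causes of the other shifts were not tested. No paired analysis was possible because every result rests on single libraries, without a test.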

Other observations

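MOL1 carried the highest summed level of the immediate-early and heat-shock genes Fos, Jun, Junb, Egr1, Hspa1a and Hspa1b, a list read as a sign of cell handling. The list summed to 2889, 4115 and 2885 CPM in MOL1, 602, 471 and 804 CPM in OPCs and 231, 199 and 198 CPM in MOL5/6. Among the members, Pgk1, Mpc1 and Slc2a1 in MOL1 were at 22.0, 113 and 30.9 CPM, 292, 309 and 471 CPM and 147, 132 and 131 CPM. Whether the handling genes and the members moved together across MOL1 cells was not tested.

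In OPCs the neuronal markers Snap25, Syt1, Meg3, Rbfox3, Slc17a7, Gad1, Gad2, Stmn2 and Nefl summed to 1141, 1315 and 1219 CPM, against 23.8, 12.0 and 15.3 CPM in MOL5/6, and the astrocyte markers to 825, 917 and 807 CPM, against 159, 163 and 148 CPM. OPCs themselves express some genes of both lists. Their part in the OPC levels of Slc2a3, Aldoc, Pkm and Eno1 was not tested.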
